A study of Mus musculus with 3 samples.

Results

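The genes described here are those whose name on the array is Zfp followed by a number, which in the mouse mostly marks genes of C2H2 zinc finger proteins, and which were detected in the control medium. A gene was taken in when at least 1 of its probes was marked as well above background in both readings of RPMI; Zfp36, an RNA-binding protein of another family, was left out. This gave 180 genes of 251 such names and of 27745 gene names on the array. The same filter passed 11642 gene names in all, and these serve as the background for levels, ratios and calls. Promoter motifs have another background, given with them. The genes were chosen by their measured RPMI intensities, so the presence of the 180 genes in RPMI is no result. Of the names left outside, 19 were well above background in only 1 of the RPMI readings and 52 in neither. The dimmest gene inside, Zfp473, had a log2 intensity of 8.73 in RPMI, and the brightest outside, Zfp329, one of 8.87.

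J774A.1 is an established mouse macrophage-like cell line. For 6 h the cells were held in RPMI medium with 10% serum from fetal calves (called RPMI here), in Earle's Balanced Salt Solution (EBSS), which holds salts and glucose and no amino acids, or in EBSS plus 10 µM SB202190, an inhibitor of p38 MAP kinases. The sample labels give EBSS alone, while the design text can also be read as EBSS added to RPMI; no serum or solvent is named for the EBSS samples. A loop of 3 dual-colour arrays read each medium once in Cy5 and once in Cy3. The labels name 1 source per medium, so each counts as 1 sample, no test between media was made, and every error below is technical.

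A C2H2 zinc finger is a short fold in which a pair of cysteines and a pair of histidines hold a zinc ion, and fingers in a row read DNA bases. Many of these proteins also carry a KRAB domain, which recruits the corepressor TRIM28 and with it the histone methyltransferase SETDB1, and such proteins are known for silencing transposable elements. Others act as activators at promoters, bind RNA or serve in ubiquitin and SUMO transfer, and some names given on the array have since been replaced. Of the 180 genes, 19 now carry another symbol, among them Zfp238 (Zbtb18), Zfp259 (Zpr1), Zfp294 (Ltn1), Zfp313 (Rnf114), Zfp289 (Arfgap2) and Zfp291 (Scaper). Several of these are not classical C2H2 factors.

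Over the control medium the 180 genes were mostly dim. Their median log2 intensity in RPMI was 9.83, from 8.73 to 14.22 (Zfp706), where probes well above background nowhere had a median of 8.55; over all 11642 genes the median was 10.6. In EBSS 153 of the 180 genes stayed well above background in both readings (85%, against 94.5% of all genes), and with SB202190 160 did (88.9%, against 95.2%). The 8 genes with no such reading in EBSS were Zfp54, Zfp94, Zfp192, Zfp324, Zfp473, Zfp608, Zfp652 and Zfp810. Their levels in RPMI lay between 8.73 and 9.09, close to the floor of the scale, and no fold of any 1 of them is read in EBSS, though they count in the medians and shares of the 180 genes.

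A ratio was called higher or lower when it was at least 1 on the log2 scale (2-fold) and when the direct array and the detour over the remaining arrays each gave at least 0.5 in the same direction. In total 25 of the 180 genes (13.9%) were called in at least 1 comparison, against 10.4% of all genes, and 155 in none. All 12 macrophage markers on the array, Csf1r and Cd68 among them, were well above background in each medium. Of 22 markers of T, B, fibroblast, epithelial and endothelial cells, Lck was so in each medium and Pdgfra in EBSS; the others lacked at least 1 reading in every medium. Each array had from 40.1% to 49.9% of its spots well above background in a channel, and the number of arrays limits the precision. Over the 180 genes the technical SE of the log2 ratios, taken from how far the loop fails to sum to 0, had a median of 0.112 and a range from 0.059 to 0.18.

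**Figure D1:**
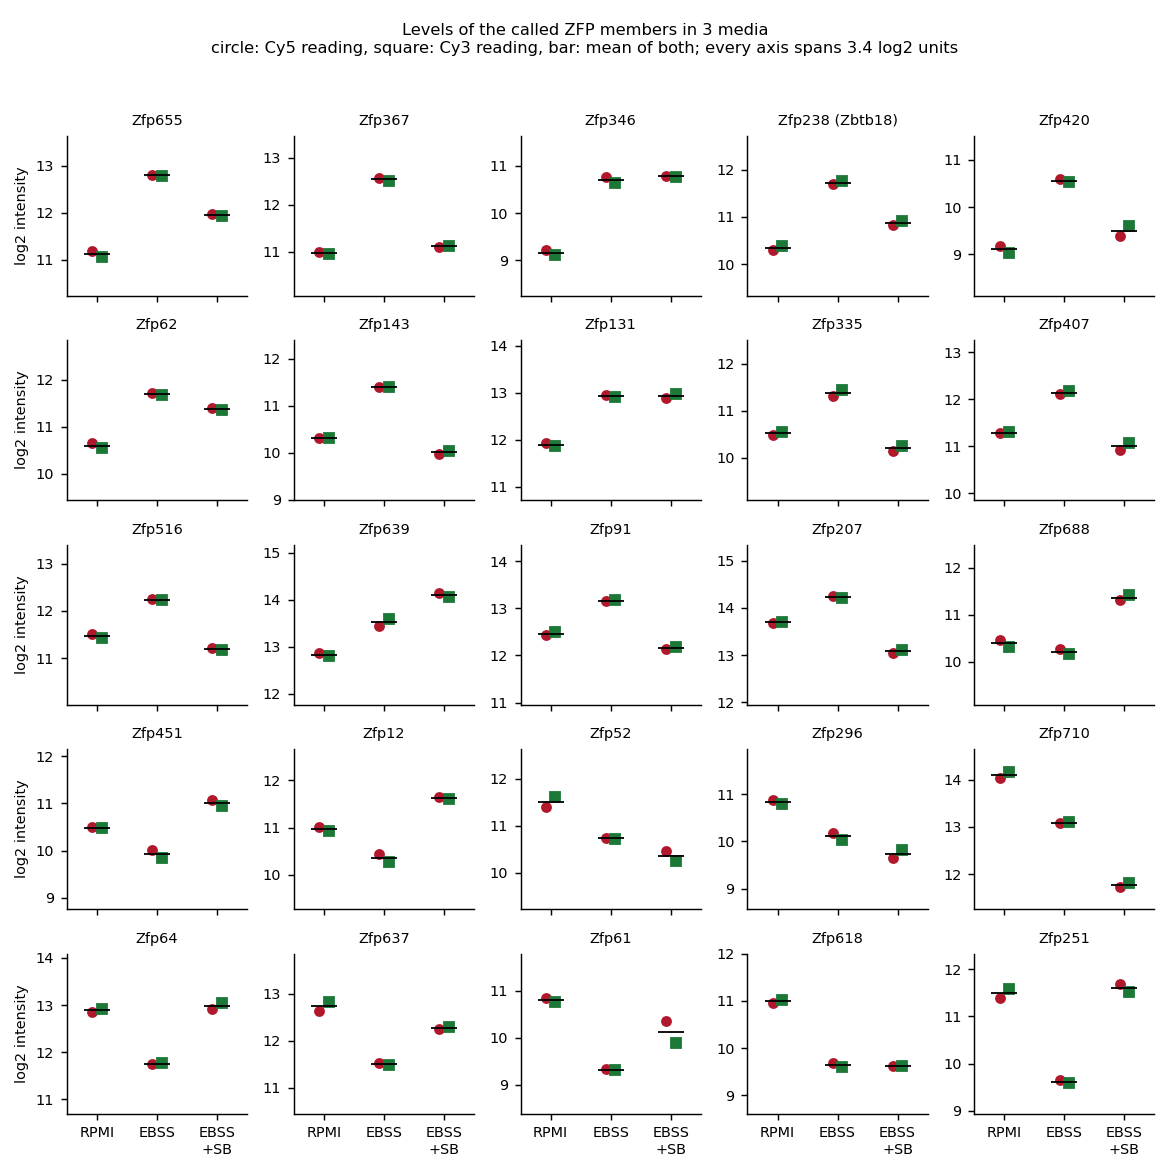
Log2 normalised intensity of the 25 called genes in RPMI, EBSS and EBSS with SB202190; circles are Cy5 readings, squares Cy3 readings and bars the mean of both. The readings of 1 medium lie close together, and Zfp655 and Zfp251 show opposite patterns, from 11.12 to 12.80 and from 11.49 to 9.61 between RPMI and EBSS.

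The printed stretches are the 250 bases before the annotated start of 4 of the 8 genes that were lower with SB202190 than in EBSS alone (RefSeq windows of GRCm38.p6), chosen after the values were seen. Zfp335 and Zfp367 are shown because they hold a full cAMP response element, and Zfp207 because it holds the CLEAR element read by lysosomal gene activators. Zfp143 is shown for contrast, as it holds no exact match to either. For Zfp367 and Zfp143 1 of 2 windows is printed. In Zfp367 only the printed window holds the cAMP response element. Near matches, such as tgacgtaa in the stretch of Zfp143, were not searched. Capitals mark matches of TGACGTCA (Zfp335 and Zfp367), TCACGTGA (Zfp207) and the GC box GGGCGG. The windows lie at chr2:164911751-164912000 on the minus strand (Zfp335), chr13:64152374-64152623 on the minus strand (Zfp367), chr11:80383029-80383278 on the plus strand (Zfp207) and chr7:110061452-110061701 on the plus strand (Zfp143).
Zfp335: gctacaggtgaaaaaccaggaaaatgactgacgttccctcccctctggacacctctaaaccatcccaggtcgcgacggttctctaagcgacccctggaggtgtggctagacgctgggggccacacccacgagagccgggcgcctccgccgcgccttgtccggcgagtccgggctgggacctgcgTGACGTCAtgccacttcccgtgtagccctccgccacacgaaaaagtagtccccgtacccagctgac
Zfp367: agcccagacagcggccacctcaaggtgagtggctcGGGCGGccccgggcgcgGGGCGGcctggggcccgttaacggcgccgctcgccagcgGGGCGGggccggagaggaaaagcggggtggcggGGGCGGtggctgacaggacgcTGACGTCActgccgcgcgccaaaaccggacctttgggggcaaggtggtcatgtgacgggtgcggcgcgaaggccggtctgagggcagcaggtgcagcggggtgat
Zfp207: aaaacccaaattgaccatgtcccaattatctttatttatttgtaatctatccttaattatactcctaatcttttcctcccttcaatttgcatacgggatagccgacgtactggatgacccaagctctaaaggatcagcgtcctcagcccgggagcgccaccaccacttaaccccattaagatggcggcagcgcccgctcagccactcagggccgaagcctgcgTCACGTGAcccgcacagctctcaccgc
Zfp143: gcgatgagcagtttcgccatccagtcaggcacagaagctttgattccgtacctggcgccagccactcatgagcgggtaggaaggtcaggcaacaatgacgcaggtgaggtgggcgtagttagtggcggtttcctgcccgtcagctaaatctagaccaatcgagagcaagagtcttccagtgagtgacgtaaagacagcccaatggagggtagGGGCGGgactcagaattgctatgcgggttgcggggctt

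Of the 180 genes 150 had at least 1 RefSeq window of 300 bases (250 before and 50 after a start), 195 windows in all, and of the 25 called genes 22. Each motif was searched on both strands. The background here was every window in the table, whether or not its gene was detected in RPMI. A gap in share thus cannot separate a trait of these genes from one of detected genes. TGACGTCA was found in 4.1% of the 195 windows and in 1.79% of all 32851 windows in the table, and among the called genes in Zfp335 and Zfp367, where it lies at -66 and -105 from the start. TCACGTGA was found in 2.05% against 0.974%, and among the called genes in Zfp207. The composite element TGATGNAA, bound by ATF4, was found in 2.05% against 3.97% and in none of the 22 called genes.

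The windows of these genes also held the ETS core CCGGAAG in 22.6% (8.86% of all windows) and the GC box in 52.3% (35.7%). The ZNF143 element, a motif of 11 letters bound by the human counterpart of Zfp143, was found in 2.56% (0.286%) and in none of the 22 called genes. The ETS core stood in those of Zfp91, Zfp451, Zfp655 and Zfp688 among the called genes. No GC box overlaps another marked motif in the printed stretches. A match describes letters only.

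The first comparison asks how these genes differ in starved cells, in EBSS against RPMI. The loss of amino acids, any loss of serum and other differences between the media cannot be told apart. Of the 180 genes 7 were higher in EBSS, or 3.89% against 4.56% of all genes, and 6 were lower, or 3.33% against 2.89%. In either direction it was 7.22% against 7.46%. These shares lay near the background under this processing. With the scanner software's ratios, which subtract more background and are larger for dim probes, 11 were higher and 29 lower (22.2%, against 16.6% of all genes), and with median centring 49 were higher and 0 lower (27.2% against 36.6%). The median ratio of the 180 genes was -0.04, with an 80% range from -0.48 to 0.67, and that of all genes lay between -0.56 and 0.62. In size 92 genes (51.1%) were under 0.25, as were 51.2% of all genes.

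Zfp655, whose human counterpart binds the signalling protein VAV, had the highest ratio in EBSS under this processing; in the scanner ratios Zfp420 (2.64) and Zfp346 (2.47) lay above it (1.76). Its log2 intensity was 11.18 (Cy5) and 11.07 (Cy3) in RPMI, 12.81 and 12.79 in EBSS, and 11.97 and 11.92 with SB202190. The EBSS readings were above both others and did not overlap with them, and the ratio to RPMI was 1.67 ± 0.12 (technical SE), or 3.18-fold. Zfp367 was read at 11.00 and 10.96 in RPMI, 12.57 and 12.51 in EBSS, and 11.11 and 11.14 with the inhibitor, a ratio of 1.53 ± 0.12 in EBSS. Its intensity was thus raised in EBSS alone. Zfp346, a protein that binds double-stranded RNA, was read at 9.22 and 9.10 in RPMI against 10.76 and 10.63 in EBSS and 10.78 and 10.77 with SB202190. Both starved media were high by about the same amount, 1.5 ± 0.12 without and 1.59 ± 0.12 with the inhibitor.

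Zfp238, the repressor now named Zbtb18 that is needed in brain and muscle differentiation, was at 10.30 and 10.38 in RPMI and at 11.70 and 11.75 in EBSS. It was higher in EBSS by 1.38 ± 0.11. Zfp420, a KRAB protein known in human cells as a brake on p53, was at 9.17 and 9.04 in RPMI and at 10.60 and 10.53 in EBSS (1.36 ± 0.11). Zfp62 had a ratio of 1.09, where its second, dimmer probe gave 0.34. Zfp143, an activator that binds near the start of many genes and of small nuclear RNA genes, had one of 1.06 ± 0.12, from 10.32 in both RPMI readings to 11.39 and 11.40 in EBSS. Zfp131 lay at 0.996, short of the size required.

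Among the 6 called genes that fell, Zfp251 had the lowest ratio, also in the scanner ratios. It was read at 11.40 and 11.59 in RPMI, 9.64 and 9.58 in EBSS, and 11.69 and 11.53 with SB202190, so that EBSS stood apart below both other media. The ratio was -1.81 ± 0.11, or 3.50-fold lower in EBSS, and -2.58 in the scanner ratios. Zfp618, which binds hydroxymethylated DNA together with UHRF2, was at 10.96 and 11.02 in RPMI, at 9.68 and 9.60 in EBSS and at 9.62 in both readings with the inhibitor (-1.36 ± 0.12). It was low in both starved media.

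Zfp61 had a ratio of -1.34, with RPMI at 10.85 and 10.76 and EBSS at 9.33 and 9.32. Its SB202190 readings, 10.35 in Cy5 and 9.88 in Cy3, lay 0.47 apart, more than those of the other called genes. Zfp637 (-1.21) and Zfp64 (-1.16), a factor that activates the MLL gene in leukaemia cells, fell as well. Zfp710 was at 14.03 and 14.17 in RPMI and at 13.08 and 13.10 in EBSS (-1.01 ± 0.15). Zfp710 was the second brightest of the 180 genes in RPMI.

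The second comparison asks how starved cells given SB202190 differ from starved cells without it; action on p38, on other targets and a difference between single cultures cannot be told apart. With SB202190 5 of the 180 genes were higher (2.78%, against 0.902% of all genes) and 8 lower (4.44%, against 2.95%). Over both directions this was 7.22% of the 180 genes against 3.85% of all genes. The median ratio was 0.01 and that of all genes 0.00, and 62.2% of the 180 genes against 58.2% were under 0.25 in size. With 1 sample per medium these shares carry no test, and they were 4.44% against 3.05% when the median of all probes of a gene was used.

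Zfp251 rose most with the inhibitor (1.90 ± 0.11, or 3.73-fold; 2.74 in the scanner ratios) and lay at a ratio of 0.09 to RPMI. Zfp12 was read at 10.44 and 10.27 in EBSS and at 11.66 and 11.60 with SB202190, a ratio of 1.26 ± 0.11. Both of its readings with SB202190 also lay above those in RPMI (11.00 and 10.93). Zfp64 rose by 1.22 ± 0.15, Zfp688 by 1.19 ± 0.12 and Zfp451, a ligase of the SUMO pathway, by 1.04 ± 0.12. For Zfp451 the probes disagreed in sign and for Zfp64 in size, as described below.

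Of the 8 genes that fell with SB202190, Zfp367 had a ratio of -1.41 ± 0.12, or 2.66-fold lower, and Zfp143 one of -1.37 ± 0.12; in the scanner ratios Zfp143 (-1.87) lay below Zfp367 (-1.52). Zfp143 had readings of 9.98 and 10.04 against 11.39 and 11.40 in EBSS. Zfp710 fell further from its EBSS level, by 1.34, to 11.74 and 11.82. These 3 had ratios to RPMI of 0.12, -0.31 and -2.35, so Zfp710 was low in both starved media and the others were near their RPMI level.

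Zfp335, part of a histone methyltransferase complex needed in neural and T cell development, was at 11.31 and 11.45 in EBSS and at 10.16 and 10.26 with SB202190 (-1.15 ± 0.12). Zfp207, a protein of the mitotic spindle and kinetochore, had the same ratio (-1.15 ± 0.18), from 14.25 and 14.21 to 13.04 and 13.11. Zfp407 (-1.12 ± 0.12), Zfp516 (-1.03 ± 0.12), a regulator of brown fat genes, and Zfp91 (-1.01 ± 0.15), a ubiquitin ligase of the non-canonical NF-κB pathway, completed the 8. Against RPMI, EBSS alone had ratios of 0.86 for Zfp335, 0.51 for Zfp207, 0.82 for Zfp407, 0.77 for Zfp516 and 0.70 for Zfp91. The EBSS sample is shared by both comparisons, so the values are set side by side only. Zfp420 lay at -0.997, short of the size required.

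**Figure D2:**
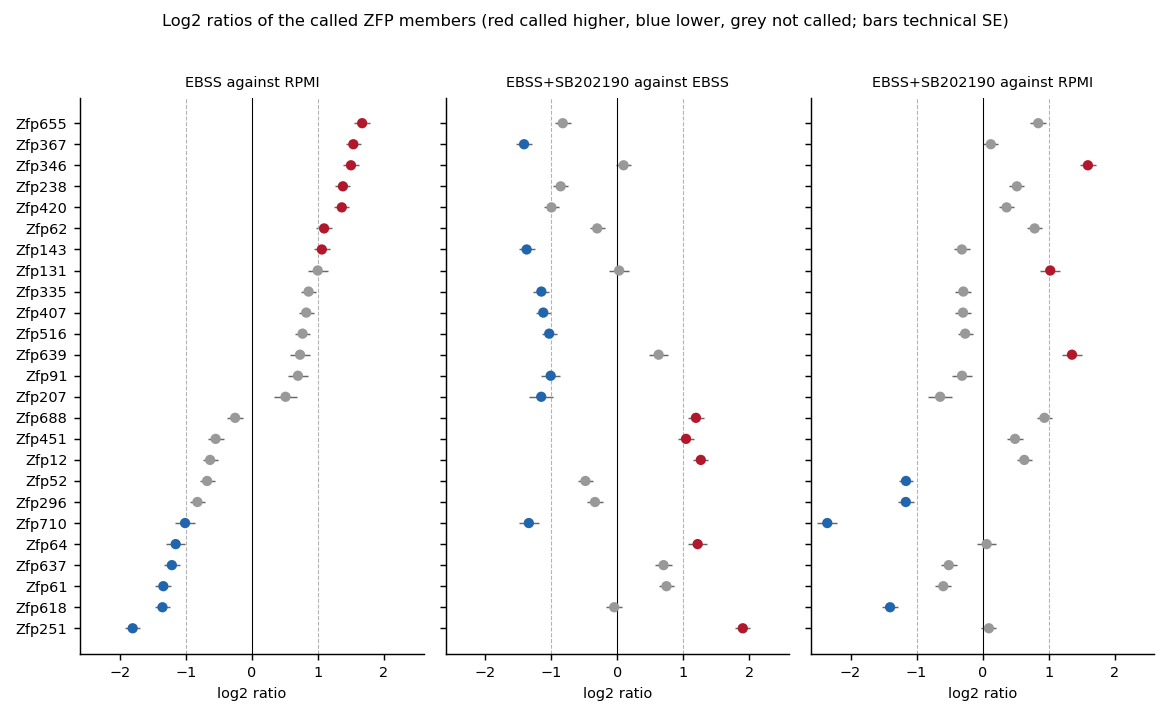
Log2 ratios of the 25 called genes in the 3 comparisons, ordered by the ratio in EBSS; red is called higher, blue lower, grey not called, and bars are the technical SE. Zfp710 has the lowest ratio in the third panel (-2.35) and Zfp346 the highest (1.59).

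The third comparison sets EBSS with SB202190 against RPMI, starvation under the inhibitor. There 3 of the 180 genes were higher (1.67%, against 1.48% of all genes) and 4 lower (2.22%, against 2.47%), or 3.89% against 3.95% in either direction, near the background under this processing. With the scanner software's ratios 8 were higher and 26 lower (18.9% against 10%). The median was -0.01. Zfp346 (1.59 ± 0.12), Zfp639 (1.35 ± 0.15) and Zfp131 (1.02 ± 0.15) rose. Zfp639 went from 12.87 and 12.80 in RPMI through 13.43 and 13.60 in EBSS to 14.14 and 14.06 with SB202190. Its 3 media were separate and in that order.

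By its brightest probe Zfp710 was 5.11-fold lower with SB202190 than in RPMI (-2.35 ± 0.15), where a second, dimmer probe gave -0.62. The value of the brightest probe was the largest change in size among the 180 genes in any comparison under the processing used here. The readings of that probe fell in the same order of media as those of Zfp639 rose, from 14.03 and 14.17 to 11.74 and 11.82. Zfp618 (-1.40), Zfp52 (-1.16) and Zfp296 (-1.16), a gene tied to pluripotency, were the others that fell. Zfp296 was read at 10.88 and 10.79 in RPMI, 10.17 and 10.04 in EBSS, and 9.64 and 9.82 with the inhibitor.

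By role, 14 of 16 listed regulators of promoters and chromatin were measured. Of these, 3 rose in EBSS (Zfp143, Zfp367 and Zfp238), none fell, and the median was 0.32; of all genes 4.56% were higher and 2.89% lower, with a median of 0.00. With SB202190 3 fell (Zfp143, Zfp335 and Zfp367), none rose, and the median was -0.33; of all genes 2.95% were lower and 0.902% higher. Both comparisons share the EBSS sample, which enters them with opposite sign, so these values are set side by side only. The 14 include Zfp652, not well above background in EBSS. The other members lay inside the limits, such as Zfp592, which acts in a chromatin complex with ZMYND8, at 0.85 in EBSS, and Zfp384 at 0.68. Zfp148 and Zfp281, both readers of G-rich promoters, were at 0.15 and 0.10 in EBSS, and Zfp410, the activator of Chd4, at 0.48. All lists by role were written with earlier results of these data known. This list left out, among others, Zfp64, Zfp618 and Zfp516, described above by their binding to DNA or action on genes. In EBSS their ratios were -1.16 for Zfp64, -1.36 for Zfp618 and 0.77 for Zfp516. With SB202190 against EBSS they were 1.22, -0.05 and -1.03. That none fell in EBSS and none rose with SB202190 holds for the listed genes only.

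Of 19 listed RNA, ribosome, ubiquitin and trafficking factors 14 were measured, with a median of 0.24 in EBSS. Zfp346 was the 1 called there, where 7.46% of all genes were called. With SB202190 Zfp451 was higher and Zfp91 and Zfp207 lower, where 3.85% of all genes were called. Zfp598, the ubiquitin ligase that marks collided ribosomes, had ratios of 0.31 ± 0.12 in EBSS and 0.71 ± 0.12 with SB202190 against RPMI. Zfp622, a maturation factor of the large ribosomal subunit, was at 0.79 ± 0.15 in EBSS, and Ltn1 (Zfp294), the ligase of ribosome quality control, at -0.25 ± 0.10. Ltn1 was dim, at 9.20 in RPMI and 8.89 in EBSS, and its scanner ratio in EBSS was -1.10. Rnf114 (Zfp313) and Rnf115 (Zfp364), RING ubiquitin ligases, were both at 0.52.

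Of 7 listed silencers of retroelements, imprints or sex-limited genes, 3 were on the array and Zfp809 was measured. Zfp809, a KRAB protein that silences murine leukaemia viruses, was read between 9.64 and 9.73 in all 6 channels. Its ratios were 0.06 ± 0.11 in EBSS and 0.00 with SB202190. The KRAB corepressor list had 24 of 26 genes measured, and none was called in any comparison. Of all genes 7.46% were called in EBSS, 3.85% with SB202190 against EBSS and 3.95% with SB202190 against RPMI. Trim28 had ratios of -0.41 ± 0.18 in EBSS and 0.70 ± 0.18 with SB202190, Setdb1 of -0.03 and 0.10, and Cbx3, a heterochromatin protein gene, of -0.84 and 0.78. Atf7ip went the other way, at 0.82 and -0.94. The list's median was -0.14 in EBSS, with 8 ratios above and 16 below 0. With SB202190 against EBSS it was 0.01, with 13 above and 11 below. Both comparisons share the EBSS sample, so these values are set side by side only.

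**Figure D3:**
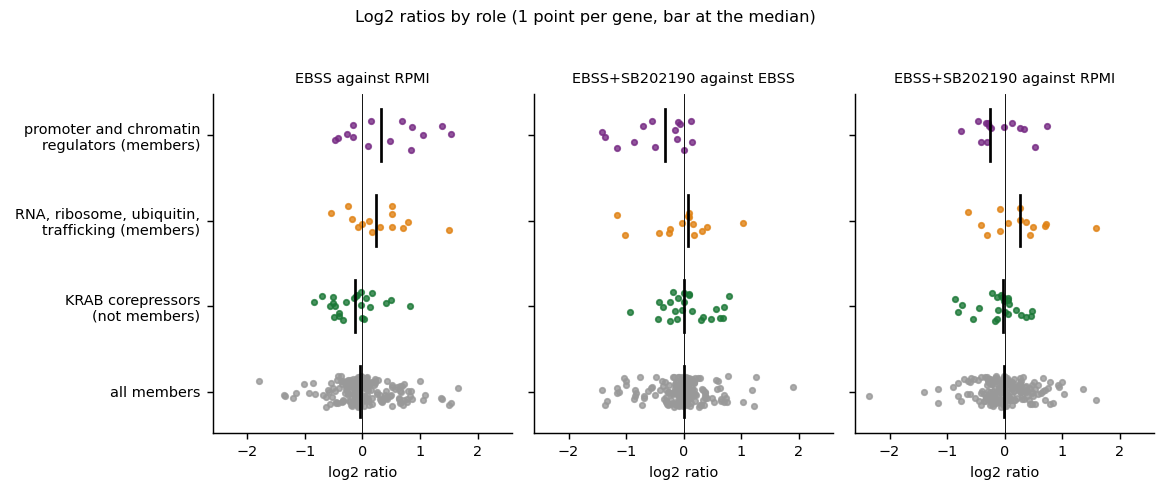
Log2 ratios by role, 1 point per gene, for the 3 comparisons, with a bar at each median. The medians of the regulators of promoters and chromatin are 0.32 in EBSS and -0.33 with SB202190, and those of all 180 genes -0.04 and 0.01. These comparisons share the EBSS sample.

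Other zinc finger names were counted in the same way, by the name on the array. Genes with a Zfp name there and a current Zbtb, Zkscan or Zscan symbol were left out of these counts. Among those left out, Zfp238 (Zbtb18) was called higher in EBSS (1.38). Zfp161 (Zbtb14), Zfp509 (Zbtb49), Zfp192 (Zkscan8) and Zfp96 (Zscan12) were called in no comparison. Of 26 genes with a Zbtb name on the array 1 rose in EBSS (Zbtb43, 1.01), against 4.56% of all genes, and none fell, against 2.89%. With SB202190 Zbtb25 (1.02) rose against EBSS, where 0.902% of all genes did, and Zbtb4 (-1.54) fell against RPMI, where 2.47% did. None of 11 genes with a Zkscan or Zscan name on the array was called in any comparison. Of 12 Klf genes 3 rose in EBSS, Klf4 (2.20), Klf9 (1.79) and Klf6 (1.35), and Klf10 (-1.5) fell, where 4.56% of all genes were higher and 2.89% lower. With SB202190 against EBSS, Klf4 (-2.35), Klf9 (-1.49) and Klf6 (-1.16) fell, where 2.95% of all genes were lower; the EBSS sample is shared.

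By position of the probe on build mm8, 47 of the 180 genes (26.1%) lay on chromosome 7 and 17 (9.44%) on chromosome 17, where all genes had 7.54% and 5.16%. On chromosome 7, 4 of the 47 were called in EBSS (Zfp61, Zfp143, Zfp420 and Zfp710) around a median of -0.05, a share near the 7.46% of all genes. The 17 genes of chromosome 17 had a median of -0.05 too. Chromosome 18 had the median farthest from 0 in EBSS, 0.61 over 8 genes, of which none was called there. The 60-base probe of Zfp655 lies at chr5:145500762-145500821, that of Zfp251 at chr15:76678883-76678942 and that of Zfp710 at chr7:79966142-79966201 (mm8), and where they lie within exons was not analysed here. Near-identical copies are common in this family, and whether a probe also reads a neighbour was not tested.

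Several genes had more than 1 probe in use, and these did not always match. Of the 68 genes with at least 2 probes well above background in RPMI, the spread of their ratios in EBSS was 0.18 at the median, and it was at least 0.5 for 15. Of the 13 genes called in EBSS, 5 had another such probe; it lay at 0.5 or more in the same direction for 2 of them. Of the 13 called with SB202190, 8 had one, and it did so for 3. For Zfp655 the 4 probes gave 1.67, 1.24, 1.09 and 0.54 in EBSS, all positive.

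Zfp451 had probes of opposite sign with SB202190, at 1.04, -0.27 and -0.46, over a span of 40367 bases. Its brightest probe, which stands for the gene here, was thus alone in rising. For Zfp64 the brightest probe gave -1.16 in EBSS and the others -0.15 and -0.11, with log2 intensities in RPMI of 12.88 against 8.91 and 8.96, close to the floor. In the scanner software's ratios, which subtract more background, the 3 probes gave -1.28, -1.30 and -0.95 in EBSS. With SB202190 against EBSS the probes of Zfp64 ran from 0.22 to 1.22 under the processing used here, the brightest at 1.22. Zfp710 had a second, dimmer probe (9.37 against 14.10 in RPMI) at -0.40 in EBSS and -0.22 with SB202190, and at -0.95 and -0.83 in the scanner ratios. With SB202190 against RPMI that probe gave -0.62 and the brightest -2.35. Of the genes that fell with SB202190, Zfp207 and Zfp407 had a second probe at -1.31 and -0.90. The other probes of Zfp91 gave -0.60 and -0.05 and those of Zfp516 -0.09 and -0.18, and in the scanner ratios the 3 probes of Zfp516 gave -1.08, -1.33 and -0.66, the brightest first. The part of probe brightness in these gaps was not tested further.

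**Figure D4:**
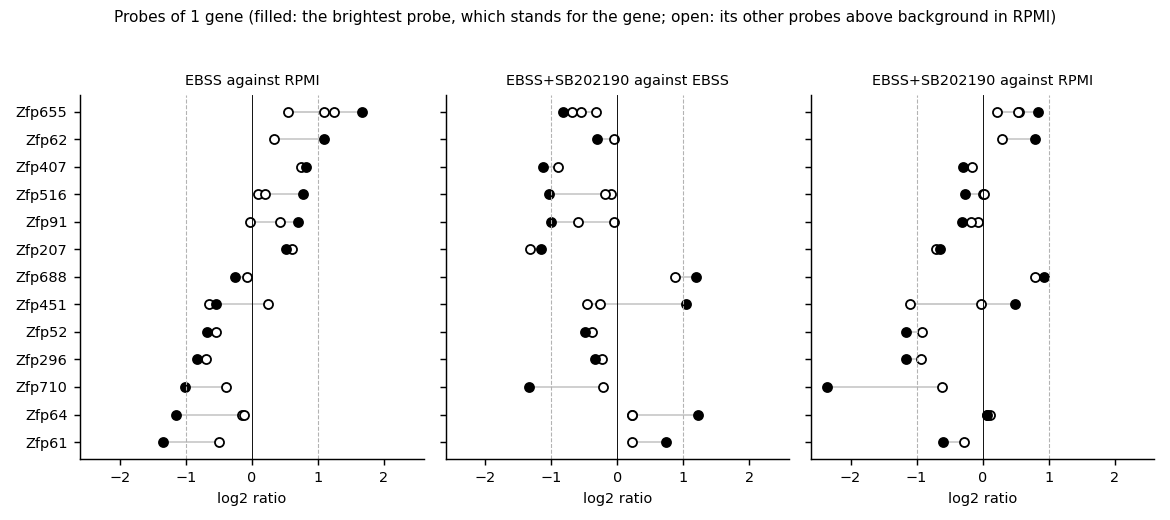
Log2 ratios of every probe in use for the called genes with more than 1 such probe; filled points are the brightest probe and open points the others. The 3 probes of Zfp451 lie on both sides of 0 in the second panel, and the 4 of Zfp655 are all positive in the first.

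The processing weighed on the dim genes. The scanner software subtracts more background than was subtracted here, and dim probes have larger ratios in its values. With its log ratios 11 of the 180 genes were higher and 29 lower in EBSS, so that higher calls were fewer than lower ones; the share called was 22.2%, against 16.6% of all genes. With SB202190 21 were higher and 18 lower (21.7% against 12.5%), and against RPMI 8 were higher and 26 lower under SB202190 (18.9% against 10%). All 13, 13 and 7 genes called in the 3 comparisons were called in the same direction there. Of the 29 lower in EBSS by the scanner ratios, 19 were well above background in both readings of both media, as were all 11 higher. Among the 153 genes so detected, 19.6% were called in EBSS by the scanner ratios, against 15.6% of all genes so detected. With SB202190 against EBSS it was 15 higher and 15 lower of 148 (20.3% against 11.5%), and against RPMI 8 higher and 12 lower of 160 (12.5% against 8.69%). Zfp420, well above background throughout, had a ratio of 1.36 in EBSS here and of 2.64 in the scanner values, and Zfp346 one of 1.5 and of 2.47.

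**Figure D5:**
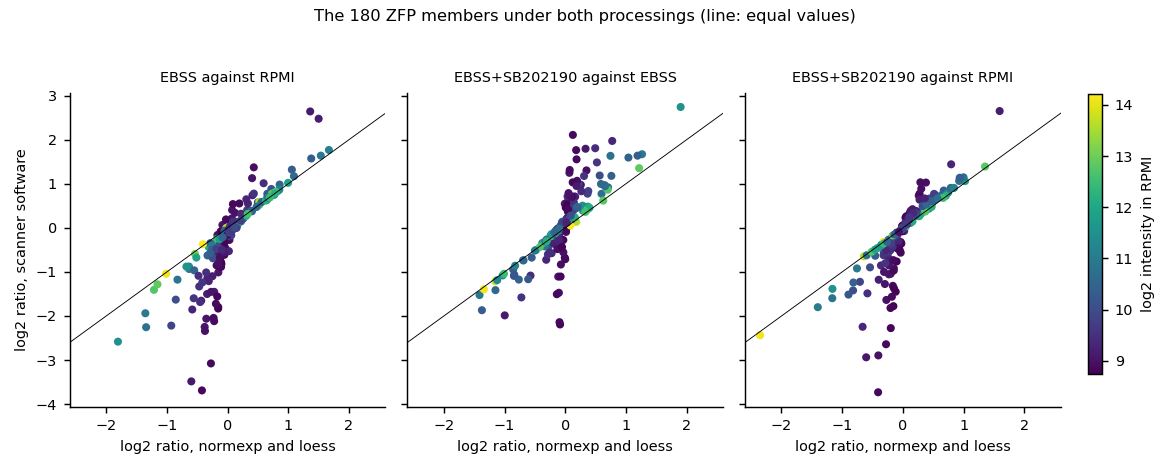
Log2 ratios of the 180 genes with normexp and loess (horizontal) and from the scanner software (vertical), coloured by log2 intensity in RPMI. Bright genes lie near the line of equal values, and dim genes such as Zfp420 (1.36 and 2.64 in EBSS) lie farther from 0 on the vertical axis.

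With median centring in place of loess the median of all 11642 genes moved from 0.00 to 0.83 in EBSS, to -0.45 with SB202190 against EBSS, and to 0.34 against RPMI. The medians of the 180 genes moved with it, to 0.65, -0.29 and 0.25. In EBSS 49 genes were then higher and none lower (27.2%, against 36.6% of all genes called). Zfp710 was at 0.19, Zfp64 at 0.02 and Zfp637 at -0.08 in EBSS under that setting, so the fall of these genes depended on the normalization. Zfp251 (-0.86), Zfp618 (-0.58) and Zfp61 (-0.58) stayed well below 0. Loess and median centring both give relative values, so neither shows an absolute change.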

How the data were processed

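Gene expression was measured on 3 Agilent dual-colour arrays of 1 slide. The submitters' processing notes and the file headers name Agilent Feature Extraction 9.5.3.1 as the scanner software. Per the file headers, the deposited mean and background intensity of a spot are not normalized. The software's own log10 ratios (Cy5 over Cy3), as deposited, come from processed intensities, with background and spatial trend subtracted and dyes normalized. The deposited log2 values of the authors' table were the same processed ratios, not centred, with medians of -0.0854, -0.0766 and -0.166; direction follows the dyes in the labels. Other deposited marks flag spots as controls, outliers or well above background.

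With limma 3.58.1 in R 4.3.3, intensities were background-corrected by normexp (offset 50) and normalized by loess with controls weighted 0. Then 1639 control spots of 45018 and from 136 to 178 outliers on each array were dropped; 0 spots were saturated. For levels, arrays were aligned by quantiles of mean intensity. The brightest probe that passed the filter stood for a gene. Each log2 ratio weighted the direct array and the detour over the others by least squares, and the technical SE came from the sum around the loop in 30 intensity bins. The loop estimate and the rule for calls were tested on simulated log2 ratios. Background correction, normalization and the choice of probe were not part of that simulation. Current symbols came from RefSeq (GRCm38.p6) by accession for 155 of the 180 genes, by symbol for 21 and by synonym for 4. Python 3.11.15 (numpy 2.4.6, pandas 2.3.3, matplotlib 3.10.9) was used further.

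Named genes were the 8 highest and 8 lowest called in EBSS and with SB202190 against EBSS, the 4 highest and 4 lowest against RPMI, and listed members by role; others were chosen after their values were seen. The genes and lists were chosen with earlier results of these data known. The 10 alternatives are given in the closing section.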

Additional observations from a re-analysis of the deposited data

Results flagged for a closer look

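Zinc finger names that the filter on RPMI left out gave a signal in the starved media in 4 cases, each with 1 reading of RPMI well above background. Zfp30 was well above background in both readings of both starved media, at a log2 intensity of 9.37 in EBSS and 9.19 with SB202190, against 8.79 in RPMI. Zfp329 was so in EBSS, at 9.17, while its RPMI readings, 9.45 in Cy5 and 8.30 in Cy3, lay far apart. Zfp438 was so with SB202190, at 8.89 against 8.70 in RPMI. Zfp78 was so with SB202190, at 8.88, and not well above background in either reading of EBSS (8.60). Probes well above background nowhere had a median of 8.55.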

How the results depend on the processing

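Of the counts and medians recomputed under 10 alternatives, 51 stayed close to the value reported and 36 moved. In EBSS against RPMI the 7 higher, 6 lower and median of -0.04 became 11, 29 and -0.18 both with the ratios of the scanner software and with the authors' table, which hold the same values. With median centring they became 49, 0 and 0.65. The share called in either direction was then 27.2% of the 180 genes against 36.6% of all genes, and later brackets give shares in this order. At a 1.5-fold size 24 and 12 genes passed (20% against 18.2%), and 3 were lower with the median of probes (5% against 6.18%). With SB202190 against EBSS the 5 higher, 8 lower and median of 0.01 became 21, 18 and 0.13 with the scanner ratios and the authors' table (21.7% against 12.5%). They became 1, 17 and -0.29 with median centring (10% against 6.78%). There 13 were lower with equal spread between arrays (10.6% against 7.6%), and 3 higher and 5 lower with the median of probes (4.44% against 3.05%). At a 1.5-fold size 15 and 17 passed (17.8% against 12.4%). Against RPMI under SB202190 the 3 higher and 4 lower became 8 and 26 with the scanner ratios and the table (18.9% against 10%). There 1 was lower with median centring (median 0.25, and 2.22% against 2.06%), and 2 were lower with equal spread (2.22% against 2.1%). On the path through the other arrays 5 were higher (5% against 4.09%), and 13 and 13 passed a 1.5-fold size (14.4% against 11.4%). The 1.5-fold size admits more genes by construction; for the others the cause was not tested.

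Of the called values of named genes 3 reversed: Zfp64 (0.02) and Zfp710 (0.19) in EBSS with median centring, and Zfp451 with SB202190 with the median of probes (-0.27). An offset of 10, and only genes well above background in all 6 channels (148), left each count within 1.5 times the value reported. No paired analysis was possible because each medium has 1 sample. No alternative supplies replicates, and intensity near the floor limits what dim genes can show.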
